A study of Homo sapiens with 16 samples.

Results

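The genes described here are 9 inflammatory cytokines and chemokines, IL1A, IL1B, LIF, IL6, IL8 (CXCL8 in the newer table), CXCL1, CXCL2, CXCL3 and CCL2, chosen by name. All 9 were listed in both expression tables, among 22892 genes kept from the HiSeq table and 25606 genes kept from the NextSeq table. The cells were HT1080, an established human fibrosarcoma line. They carried a Tet repressor and, at an FRT site on 1p, 8p or 12q, a doxycycline (DOX) inducible XIST cDNA, and the study asked how XIST RNA silences genes at different integration sites. None of the members lies on these chromosome arms.

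The HiSeq table had 6 RNA libraries. The 8p line gave 1 with No DOX and 2 after 5 days of DOX. The others, all with DOX, were 1 library each of a 1p XIST clone, a 1p clone with an empty vector and a 12q XIST clone. The NextSeq table had 4 libraries, 1 each of 1p XIST and 12q XIST with No DOX and with DOX. The FRT sites appeared to be single integrations by Southern blotting. The 12q line came from another Tet-repressor subclone than the 8p and 1p lines, so integration site and cell history cannot be told apart. The library names differ between the 1p XIST libraries (DOX4, ND1A and DOX2A) and between the 12q libraries of the tables (DOX2A against ND1A and DOX1A), and these may be different clones. The methods speak of 2 8p clones given DOX, where the series' design text speaks of a replicate of the 8p clone, so the 8p DOX libraries may be of different clones, and "8p" below names the integration site. The second 8p DOX library is the only replicate of a group, and p-values therefore measure mostly the spread between these samples.

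Interleukin-1 alpha and beta are early inflammatory signals that bind the IL-1 receptor and lead to activation of NF-kB and AP-1. These transcription factors in turn switch on IL6, a cytokine that signals through IL6R and IL6ST to STAT3, and the chemokines. IL8 and CXCL1, CXCL2 and CXCL3 attract neutrophils through CXCR1 and CXCR2, CCL2 attracts monocytes through CCR2, and LIF signals through LIFR and IL6ST. Many of their mRNAs are short-lived and are targets of the ZFP36 family, which binds AU-rich elements, and of ZC3H12A. In fibroblasts and in many tumour lines they are known as an inducible group.

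The promoters of the CXCL genes share a sequence of the kind known to be bound by NF-kB. RefSeq windows (GRCh38.p14) of 300 bases around the start site were held for 7 of the 9 members, all but CCL2 and LIF. The letters GGAATTTCC, sought on both strands, were in the windows of CXCL8, CXCL1, CXCL2 and CXCL3, and in 0.461% of 35116 promoter windows. The longer form GGGAATTTCC, which contains it, was in those of CXCL1, CXCL2 and CXCL3, and in 0.145% of all. The IL6 window held the related GGGATTTTCC, present in 0.0911% of all windows. The AP-1 sequence TGACTCA was in the windows of CXCL8 and IL1A, and in 4.95% of all. The 150 bases before the start are shown for the 5 genes because the results below separate genes with the same motif. Capitals mark the NF-kB letters and, first in CXCL8, TGACTCA.

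CXCL8, chr4:73740419-73740568, plus strand: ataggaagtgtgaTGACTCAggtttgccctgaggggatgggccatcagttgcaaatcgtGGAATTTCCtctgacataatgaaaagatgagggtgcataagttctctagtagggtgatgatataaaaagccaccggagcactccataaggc
CXCL1, chr4:73869243-73869392, plus strand: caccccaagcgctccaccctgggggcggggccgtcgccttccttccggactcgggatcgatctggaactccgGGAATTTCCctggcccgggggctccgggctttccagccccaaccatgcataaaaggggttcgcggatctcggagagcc
CXCL2, chr4:74099196-74099345, minus strand: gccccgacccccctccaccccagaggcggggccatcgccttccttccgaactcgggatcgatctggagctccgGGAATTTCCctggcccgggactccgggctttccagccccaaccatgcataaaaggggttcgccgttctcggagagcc
CXCL3, chr4:74038690-74038839, minus strand: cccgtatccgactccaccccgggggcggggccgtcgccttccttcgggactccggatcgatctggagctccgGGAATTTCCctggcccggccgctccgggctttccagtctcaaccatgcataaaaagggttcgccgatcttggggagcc
IL6, chr7:22727050-22727199, plus strand: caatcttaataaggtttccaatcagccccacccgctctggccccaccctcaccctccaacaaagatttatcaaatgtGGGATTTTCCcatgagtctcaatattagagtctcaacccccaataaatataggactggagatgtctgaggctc

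The motif began 78 bases before the start in CXCL1 and CXCL3, 77 bases in CXCL2, 91 bases in CXCL8 and 73 bases in IL6. Over the 250 bases before the start, CXCL1 and CXCL3 were 81.4% identical and CXCL2 and CXCL3 73.3%, whereas CXCL8 and CXCL3 were 45.4% identical. A match of letters is a description of these windows and not a measured binding site.

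Levels are given in FPKM, fragments scaled for transcript length and for library size, which can be compared between genes. The tables were made separately, and values of the 2 tables are set side by side without a test. LIF was the highest of the members in every library, and CXCL1 and CXCL2 were listed at 0 in all 10. The other members were low, with table means between 0.161 and 2.42 FPKM. In the HiSeq table, IL6, with a mean of 0.374 FPKM, stood above 45.0% of the genes listed.

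**Figure D1:**
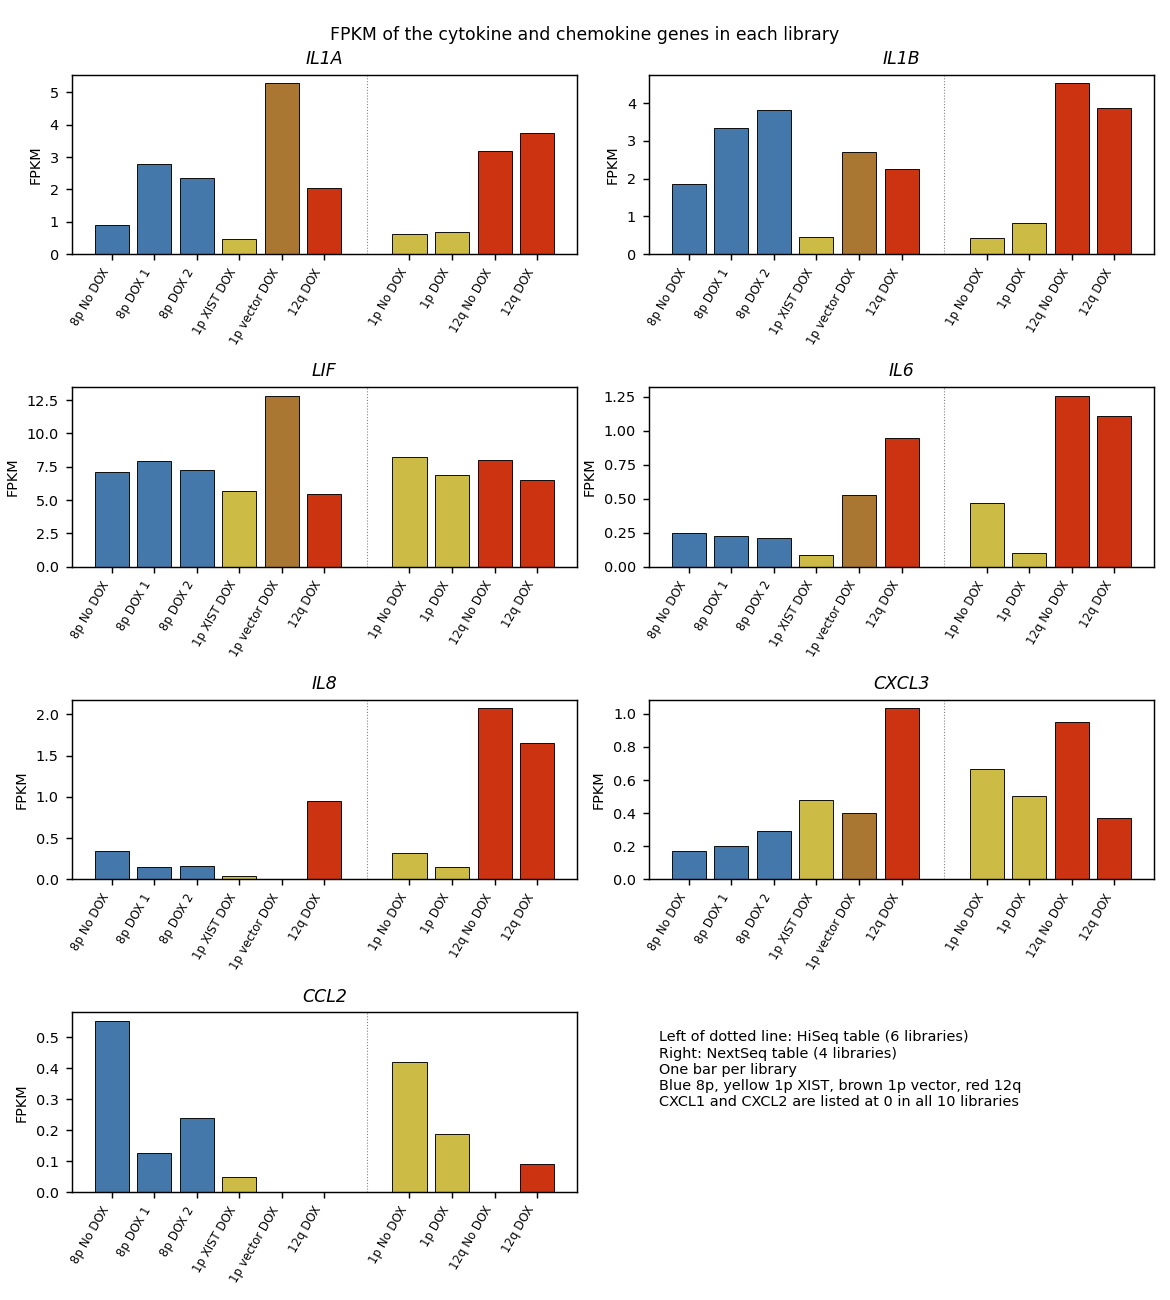
FPKM (vertical axes, each from 0) of the 7 members with any value above 0, with 1 bar per library and no error bars because nearly all groups have 1 library. IL1A and IL1B are low in the 3 1p XIST libraries, LIF is tallest in the 1p vector library at 12.8 FPKM, and IL8 and IL6 are tallest in the 12q libraries.

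IL1A (chromosome 2, 113247963 to 113259442, hg18) was listed at 0.907 FPKM in 8p with No DOX, 2.80 and 2.35 FPKM in the 8p DOX libraries, 0.480 FPKM in 1p XIST, 5.29 FPKM in 1p vector and 2.05 FPKM in 12q. In the NextSeq table it had 0.608 and 0.677 FPKM in 1p with No DOX and with DOX, and 3.19 and 3.73 FPKM in 12q. The 1p XIST libraries were thus the lowest in both tables. IL1B, its neighbour (113303808 to 113310827), had 1.86, 3.34 and 3.82 FPKM in the 8p libraries in the same order, 0.452 FPKM in 1p XIST, 2.70 FPKM in 1p vector and 2.26 FPKM in 12q. In NextSeq it had 0.431 and 0.834 FPKM in 1p and 4.54 and 3.87 FPKM in 12q.

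LIF (chromosome 22, 28966442 to 28972796), a cytokine of the IL6 family, had 7.12, 7.90 and 7.24 FPKM in the 8p libraries, 5.71 FPKM in 1p XIST, 12.8 FPKM in 1p vector and 5.48 FPKM in 12q. NextSeq gave 8.26 and 6.89 FPKM in 1p and 8.01 and 6.51 FPKM in 12q. Apart from 1p vector its levels stayed within a narrow band. Its range over the NextSeq libraries, 0.30 on the log2(FPKM + 1) scale, was wider than that of 38.4% of the genes tested, against 97.6% for IL1B and 96.5% for IL1A.

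IL6 (chromosome 7, 22733291 to 22738146) had 0.246, 0.223 and 0.213 FPKM in the 8p libraries, 0.0874 FPKM in 1p XIST, 0.529 FPKM in 1p vector and 0.946 FPKM in 12q. NextSeq gave 0.468 and 0.104 FPKM in 1p, and 1.26 and 1.11 FPKM in 12q. The 12q libraries were the highest in both tables.

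IL8 (chromosome 4, 74825087 to 74828297) had 0.350, 0.15 and 0.160 FPKM in the 8p libraries, 0.0393 FPKM in 1p XIST and 0.947 FPKM in 12q, and it was listed at 0 in 1p vector. In the NextSeq table it had 0.325 and 0.152 FPKM in 1p, and 2.07 and 1.65 FPKM in 12q. CXCL3 (75121176 to 75123354), in the same cluster on 4q, had 0.169, 0.204 and 0.293 FPKM in the 8p libraries, 0.480 FPKM in 1p XIST, 0.401 FPKM in 1p vector and 1.03 FPKM in 12q. The NextSeq libraries had 0.668 and 0.502 FPKM in 1p, and 0.95 and 0.372 FPKM in 12q, so there the clones overlapped.

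CCL2 (chromosome 17, 29606409 to 29608333) had 0.552, 0.125 and 0.239 FPKM in the 8p libraries and 0.0488 FPKM in 1p XIST, and was listed at 0 in 1p vector and 12q. The NextSeq libraries had 0.420 and 0.187 FPKM in 1p, 0 in 12q with No DOX and 0.0914 FPKM in 12q with DOX. Unlike IL6 and IL8, it was lowest in the 12q libraries of both tables, at the same 0 as 1p vector in the HiSeq table.

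CXCL1 (74953973 to 74955883) and CXCL2 (75181618 to 75183861) carried the same promoter letters as CXCL3 and were listed at 0 throughout. CXCL1, CXCL2 and CXCL3 are close copies of each other, and reads shared among them may have been assigned to CXCL3 or left out, so the split between them is uncertain. A value of 0 was not rare, since 4684 HiSeq genes were listed at 0 in all 6 libraries and 7192 NextSeq genes in all 4.

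The HiSeq FPKM of low genes were read as multiples of a common step, from which implied numbers of fragments were derived. For 80.1% of 3460 low genes a set of whole numbers, to within 0.15 of a fragment, could be found. How often such sets would be found without a common step was not worked out, so this share does not establish the reading. All implied fragments and their intervals rest on it. The numbers below are the smallest such sets. The true numbers may be a common multiple of them, and the counting intervals and floors would then be narrower and lower. By the same steps the HiSeq libraries had 0.934 to 1.15 times the depth of 8p No DOX. Steps could not be recovered from the NextSeq table, whose depth is unknown, nor for IL1A, IL1B and LIF. Intervals are exact at 95% and cover counting error only.

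IL6 rested on 9, 9 and 9 fragments in the 8p libraries, 3 in 1p XIST, 19 in 1p vector and 33 in 12q (22.7 to 46.3). IL8 rested on 19, 9 and 10 fragments in the 8p libraries, 2 in 1p XIST, 0 in 1p vector and 49 in 12q (36.3 to 64.8). The 0 for IL8 in 1p vector allows up to 0.0563 FPKM, taking 3 fragments as the floor. CXCL3 rested on 6, 8 and 12 fragments in 8p, 16 in 1p XIST, 14 in 1p vector and 35 in 12q. CCL2 rested on 12, 3 and 6 fragments in 8p, 1 in 1p XIST and 0 in 1p vector and in 12q, where the floor is 0.140 and 0.144 FPKM.

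**Figure D2:**
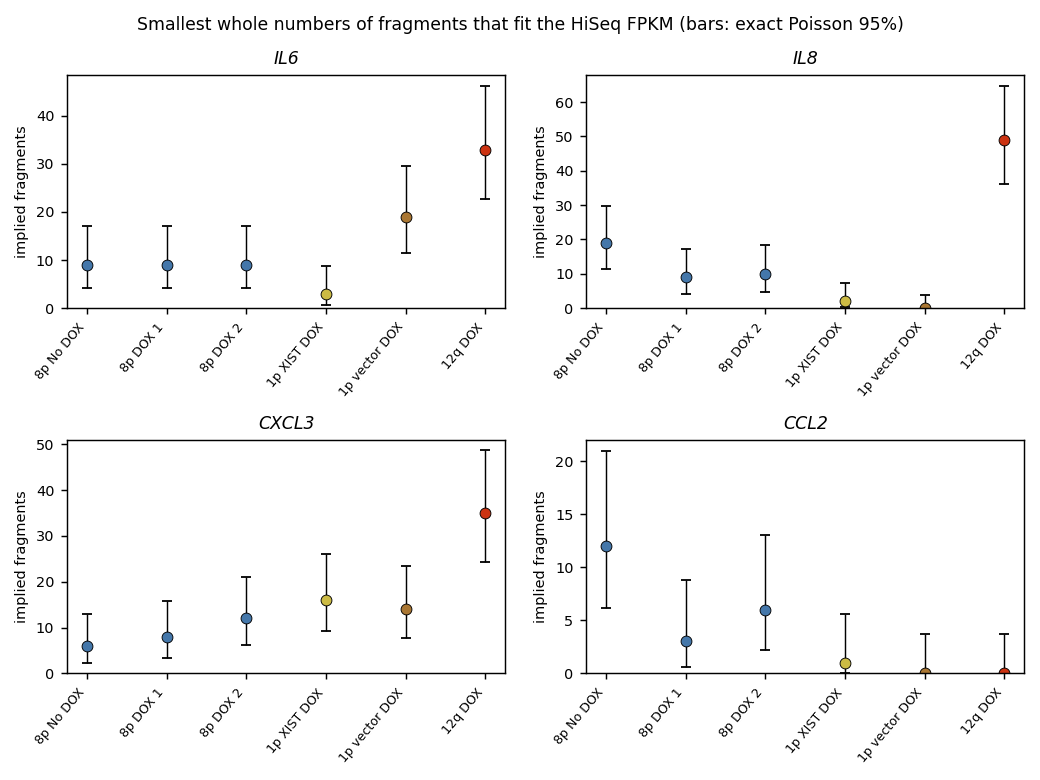
Implied fragments (vertical axes, from 0) of IL6, IL8, CXCL3 and CCL2 in the 6 HiSeq libraries, with exact Poisson 95% intervals. The 12q library is the highest for IL6 (33), IL8 (49) and CXCL3 (35), and CCL2 is highest in 8p No DOX (12).

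The clones with 12q and 1p XIST could be compared 3 times without sharing a library, once in the HiSeq table with DOX and in the NextSeq table with No DOX and with DOX. IL8 was 24.1-fold, 6.37-fold and 10.9-fold higher in 12q in these pairs, IL6 10.8-fold, 2.69-fold and 10.6-fold, IL1B 5.01-fold, 10.5-fold and 4.64-fold, and IL1A 4.26-fold, 5.24-fold and 5.52-fold. Of the 7 members averaging 0.1 FPKM or more in both tables, these 4 exceeded 1.5-fold in all 3 pairs, as did 9.18% of the 12250 genes at that level. LIF had ratios of 0.960, 0.970 and 0.946, and CXCL3 of 2.15, 1.42 and 0.741. The members therefore did not form 1 block.

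With 2 to 3 fragments in 1p XIST, the HiSeq ratio of IL8 had a counting interval of 6.31 to 204, and that of IL6 of 3.39 to 55.0. The HiSeq ratio of CXCL3 had an interval of 1.16 to 4.15. These intervals compare libraries and not conditions.

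Limma, a linear model with moderated variances, was fitted to log2(FPKM + 1) over all genes that averaged 1 FPKM or more, with Benjamini-Hochberg adjustment and calls at an adjusted p under 0.05. Differences on this scale understate the change of low genes. Of the NextSeq genes, 4 members passed the filter, namely IL1A, IL1B, IL8 and LIF. IL1B was higher in 12q than in 1p by 1.68 ± 0.179 (SE, adjusted p = 0.00705), IL1A by 1.44 ± 0.134 (adjusted p = 0.00545) and IL8 by 1.21 ± 0.161 (adjusted p = 0.0109). LIF differed by -0.05 ± 0.0802 (adjusted p = 0.623). With 1 library per clone and condition, the residual of this fit is the difference of the DOX change between the clones. It has 1 degree of freedom, so the SE and p-values do not measure the spread between cultures of a clone. The fit called 17.9% of 11397 genes higher and 32.8% in either direction, so that calls were common. IL1A, IL1B and IL8 all averaged 1 FPKM only through their levels in 12q, being between 0.152 and 0.834 FPKM in 1p, so their passing the filter favoured a difference and their calls are given as a description. Other markers moved with this comparison, as all 5 fibroblast markers tested were called lower in 12q and the 12q DOX library held epithelial transcripts, as described below.

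In the HiSeq table the filter left IL1A, IL1B and LIF. Beside 24% of genes called higher in 12q than in 1p XIST and 33.5% called in all, IL1B was higher by 1.17 ± 0.112 (adjusted p = 0.00985) and IL1A by 1.04 ± 0.122 (adjusted p = 0.0132), and LIF differed by -0.05 ± 0.101 (adjusted p = 0.720). The median of all genes moved by 0.13 in this comparison, and relative to it IL1B differed by 1.04 and IL1A by 0.91. The fit has 1 residual degree of freedom, from the 8p DOX pair, and assumes that lone libraries vary like it. Without the FPKM filter the calls were lost (adjusted p = 0.0859 for IL1B and 0.0978 for IL1A).

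The empty-vector library showed that low IL-1 was not shared by both 1p HiSeq lines. IL1A was 11.0-fold, IL1B 5.97-fold, IL6 6.06-fold and LIF 2.25-fold higher in 1p vector than in 1p XIST. The fit gave 2.09 ± 0.122 for IL1A (adjusted p = 0.00413), 1.35 ± 0.112 for IL1B (adjusted p = 0.00655) and 1.04 ± 0.101 for LIF (adjusted p = 0.00776), beside 15% of all genes called higher and 42.2% called in all. This comparison shares the 1p XIST library with the one above. The calls were lost without the filter (adjusted p = 0.0734 to 0.0763). IL6 rested on 19 against 3 fragments, with a counting interval of the ratio of 1.78 to 31.9. No such difference was measured for the chemokines, but their counts were low. CXCL3 had a ratio of 0.837 (0.377 to 1.82), IL8 had 0 against 2 fragments (ratio up to 5.08) and CCL2 0 against 1 (up to 37.2). XIST itself was at 0.0705 FPKM in the vector library and between 22.0 and 99.0 FPKM in the 6 XIST libraries with DOX, but lines and XIST cannot be told apart in this pair.

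**Figure D3:**
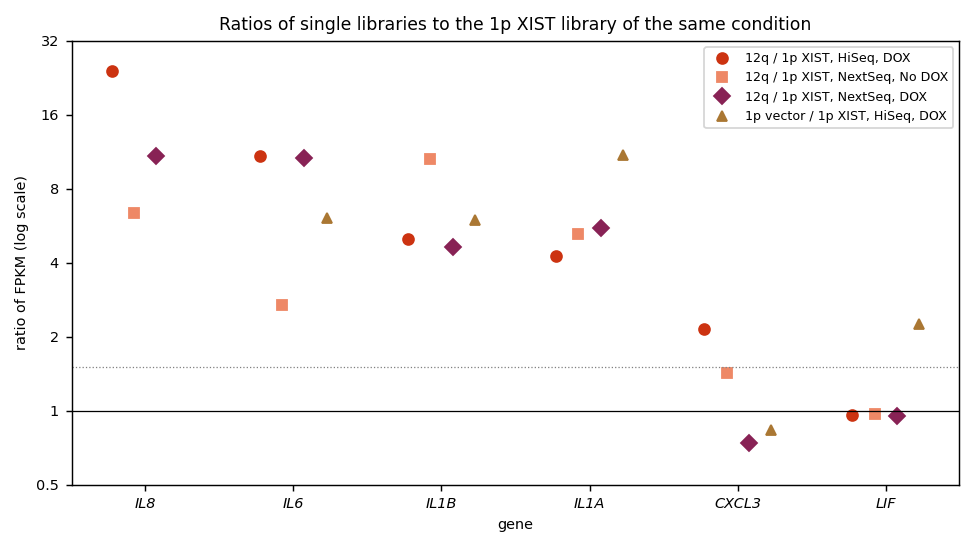
Ratio of FPKM (log axis) of 12q to 1p XIST in 3 pairs of libraries and of 1p vector to 1p XIST in 1 pair, for 6 members; the dotted line is at 1.5. IL8, IL6, IL1B and IL1A lie above it in every 12q pair, LIF rises above it in 1p vector (2.25), and no point is drawn for IL8 in 1p vector, which is listed at 0.

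The 8p libraries were compared with the other 3 HiSeq libraries as a group. The 8p group pooled 1 No DOX and 2 DOX libraries, whereas the other 3 all had DOX, so DOX was not balanced. The 8p libraries share 1 integration site and are not independent lines, and the p-values treat them as replicates. Of the 3 members tested none was called, against 5.17% of all genes. IL1B differed by 0.59 ± 0.378 (adjusted p = 0.332), IL1A by -0.07 ± 0.516 (adjusted p = 0.939) and LIF by -0.01 ± 0.289 (adjusted p = 0.992). The spread among the other clones was wide, since IL1A was 2.02 ± 0.989 FPKM in 8p (SD, n = 3) and 2.60 ± 2.45 FPKM in the others (n = 3). The SD of 8p includes the difference between No DOX (0.907 FPKM) and DOX (2.80 and 2.35 FPKM). The median of all genes was 0.22 higher in 8p, and relative to it IL1B differed by 0.38, IL1A by -0.29 and LIF by -0.22. Genes were called 466 higher and 121 lower in 8p, and 172 higher and 239 lower once libraries were rescaled to a common median.

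Below the filter, CXCL3 was lower in all 3 libraries of 8p than in any other HiSeq library, as were 6.72% of 14068 genes with at least 0.1 FPKM on average. Its mean was 0.222 ± 0.0639 FPKM in 8p and 0.638 ± 0.344 FPKM in the others (SD, n = 3 each), a ratio of 0.348. CCL2 was listed higher in every 8p library than in the others, as were 28.3% of genes, with 21 fragments in all against 1. Of the 21, 12 were in the No DOX library, and the first 8p DOX library, at 0.125 FPKM, lay within what the 0 in 1p vector and 12q allows. The other HiSeq libraries averaged 0.0163 FPKM of CCL2, so it reached an average of 0.1 FPKM only through 8p. This favoured the order seen, which is given as a description. Without the filter limma gave, on log2(FPKM + 0.1), -1.12 ± 0.365 for CXCL3 (adjusted p = 0.154) and 1.69 ± 0.411 for CCL2 (adjusted p = 0.0992). IL6 and IL8 overlapped between the groups.

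The CXCL3 difference was set against its neighbourhood on 4q. Within 10 Mb of the cluster, 42 of 44 genes averaging 1 FPKM or more were lower in 8p, with a median difference of -0.47 on the log2(FPKM + 1) scale against 0.22 for all genes. Within 20 Mb 69 of 74 genes were lower, with a median of -0.53, so the shift was not limited to the surroundings of the cluster. The median ratio of FPKM in 8p to the others was 0.652 in the 10 Mb window and 1.18 over all genes. The ratio of IL8, 0.669, was near the window's median, and 2 of the 44 genes had a ratio at or below that of CXCL3. The nearest gene with at least 1 FPKM on one side, ANKRD17 (74159366 to 74343366), had a ratio of 0.638, and that on the other, RCHY1 (76623271 to 76658664), had 0.670. The windows around IL1A and IL1B and around IL6 had medians of 0.27 and 0.32, close to that of all genes. In the comparison of 12q with 1p the 4q window moved by 0.30 in the HiSeq table and by -0.02 in the NextSeq table, against 0.91 for IL8 and 0.46 for CXCL3 in the first and 1.21 and 0.05 in the second. The part of the neighbourhood in the CXCL3 difference was not tested.

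**Figure D4:**
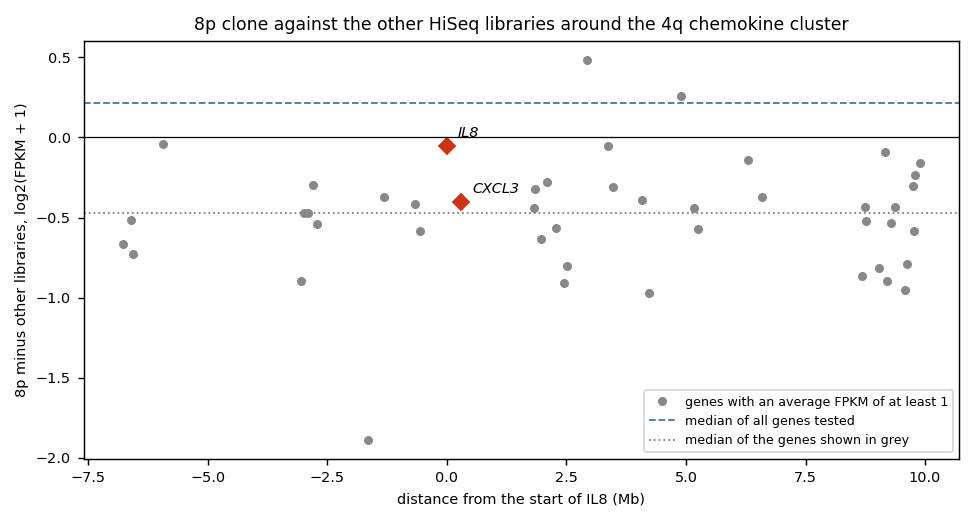
Difference between 8p and the other 3 HiSeq libraries in log2(FPKM + 1) (vertical axis) against the distance from the start of IL8 in Mb (horizontal axis), for 44 genes of 4q (grey), IL8 and CXCL3 (red). All but 2 grey points lie below 0, while the dashed line, the median of all genes, is at 0.22.

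DOX was examined within each integration site. In 8p, IL1A rose 2.84-fold and IL1B 1.92-fold with DOX. Against the No DOX library, the replicates gave ratios of 3.09 and 2.59 for IL1A, whose DOX mean was 2.58 ± 0.315 FPKM (SD, n = 2), and of 1.79 and 2.05 for IL1B, whose DOX mean was 3.58 ± 0.340 FPKM. Both DOX libraries were at least 1.5-fold above No DOX for these genes, as they were for 7.94% of genes. On the log2 scale the fit gave 0.90 ± 0.105 for IL1A (SE, adjusted p = 0.0171) and 0.68 ± 0.0970 for IL1B (adjusted p = 0.02). LIF had 7.57 ± 0.465 FPKM with DOX and 7.12 FPKM without, a difference of 0.08 ± 0.0872 (adjusted p = 0.530). The fit called 31.1% of all genes, 11.3% higher and 19.8% lower. Rescaled to a common median it called 1873 genes higher and 1721 lower, against 1286 and 2251. With 1 No DOX library, and DOX libraries that may be of other clones, a difference between cultures or clones cannot be told apart from DOX, and without the filter both calls were lost (adjusted p = 0.121 for IL1A and 0.130 for IL1B).

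No such rise was measured for IL8, CCL2 or IL6 in 8p. IL8 and CCL2 were at least 1.5-fold lower than No DOX in both DOX libraries, as were 7.78% of 14068 genes. CCL2 averaged 0.1 FPKM, the limit for these genes, only through the 8p libraries, of which No DOX was the highest at 0.552 FPKM. IL8 went from 19 fragments to 9 and 10, a ratio of 0.444 (counting interval 0.222 to 0.885). CCL2 went from 12 fragments to 3 and 6, a ratio of 0.333 (0.124 to 0.860). IL6 had a ratio of 0.887 (0.379 to 2.24) and CXCL3 of 1.48 (0.573 to 4.50). Without the filter, on log2(FPKM + 0.1), limma called none of the 4 (adjusted p = 0.115 for IL8, 0.238 for CCL2, 0.365 for IL6 and 0.473 for CXCL3).

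In the NextSeq table, with 1 library per clone and condition, the DOX term called 1 of 11397 genes (0.00877%), and 746 had an unadjusted p under 0.05. Of the 4 members tested none was called. LIF differed by -0.25 ± 0.0802 (adjusted p = 0.702), IL8 by -0.21 ± 0.161 (adjusted p = 0.780), IL1A by 0.12 ± 0.134 (adjusted p = 0.849) and IL1B by 0.09 ± 0.179 (adjusted p = 0.916). The ratio of IL1A with DOX was 1.11 in 1p and 1.17 in 12q, below the 2.84 of 8p. IL1B had a ratio of 1.94 in 1p, similar to the 1.92 of 8p, and 0.853 in 12q. IL6 had a ratio of 0.223 in 1p and 0.881 in 12q, and IL8 of 0.467 and 0.796. Over all 4 DOX libraries, IL6 and IL8 were lower than the No DOX library of their site in each, as were 16.7% of 12250 genes, and IL1A was higher in each, as were 10.2%. IL6 had 9 implied fragments in each 8p library, so by this reading its lower 8p values come only from the scaling for depth. Both 8p ratios of a gene also share the same No DOX library. Whether these DOX ratios differ between the sites was not tested. The 1p libraries with No DOX and with DOX carry different names, and a difference between cultures or clones cannot be told apart from DOX there.

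**Figure D5:**
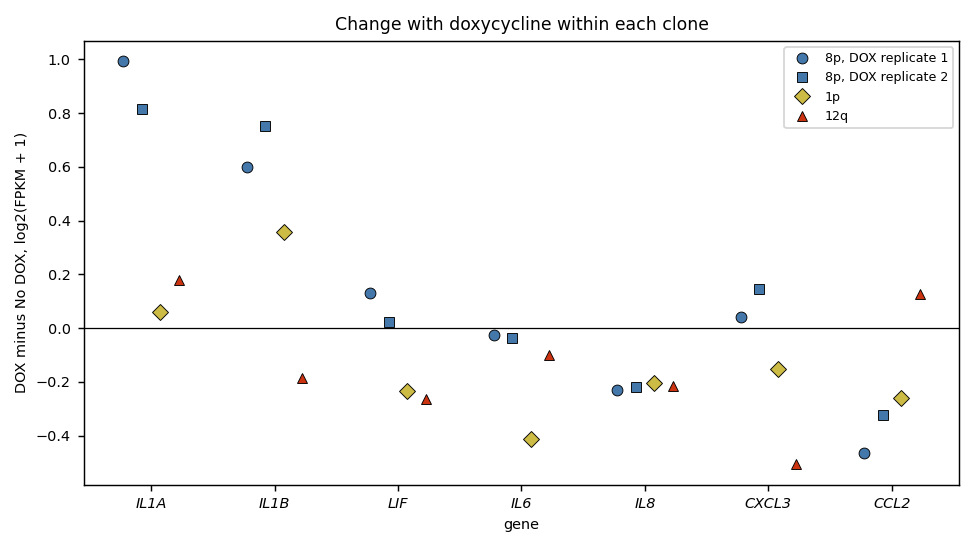
Difference between DOX and No DOX in log2(FPKM + 1) (vertical axis) for 7 members, as 1 point for each of the 4 DOX libraries against the No DOX library of its site; the 8p points share 1 No DOX library. IL1A and IL1B lie highest in both 8p replicates, and IL8 lies below 0 in all 4 libraries.

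The receptors, fixed as a list of 10, were largely silent for chemokines. CXCR1 and CCR2 were listed at 0 in all 10 libraries, and CXCR2 did not exceed 0.0967 FPKM. Of the IL-1 receptors, IL1RAP, the shared accessory chain, had 4.63 to 7.39 FPKM in the HiSeq table, while IL1R1, the signalling receptor, did not exceed 0.154 FPKM. That highest value was in 12q, with 24 fragments against at most 5 in any other HiSeq library. IL6ST, the shared signal transducer of IL6 and LIF, had 17.4 to 18.9 FPKM in 8p and 7.95 to 14.5 FPKM in the others. The 8p comparison called 2 of the 4 receptors tested, against 5.17% of all genes. LIFR was higher by 0.89 ± 0.192 (adjusted p = 0.0461) and IL6R lower by 0.74 ± 0.149 in size (adjusted p = 0.0424). LIFR had 2.16 to 2.92 FPKM in 8p against 0.499 to 1.11 FPKM, and IL6R 1.01 to 1.14 FPKM against 2.16 to 2.83 FPKM. The other HiSeq libraries averaged 0.856 FPKM of LIFR, so its passing the filter rested on 8p. These p-values treat libraries of 1 integration site as replicates. Both calls were lost when the 8p No DOX library, either 8p DOX library, 1p XIST or 1p vector was left out, with adjusted p up to 0.197 over all alternatives. Without the FPKM filter both were lost too, and LIFR also with libraries rescaled or a pseudocount of 0.1. In all, LIFR was called in 2 and IL6R in 4 of 11 alternatives.

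Of 16 NF-kB genes tested in the NextSeq table, 3 were higher in 12q than in 1p, 3 lower and 10 not called, with a median difference of 0.07 against 0.02 for all genes. That is 37.5% of the list called, beside 32.8% of all genes. NFKB2, which encodes a subunit of NF-kB and is itself a target, was higher in 12q by 1.04 ± 0.0847 (adjusted p = 0.00444), with 16.3 and 14.9 FPKM against 7.97 and 6.26 FPKM. In the HiSeq table of 17 tested, 6 (35.3%) were higher in 12q and none lower, beside 33.5% of all genes called and 24% called higher, and the median of 0.11 was close to the 0.13 of all genes. NFKB2 was at 6.29 FPKM in 1p XIST, 12.5 FPKM in 12q, 18.0 FPKM in 1p vector and 10.7 to 12.6 FPKM in 8p. TNFAIP3, a feedback inhibitor of NF-kB, had 1.71 FPKM in 1p XIST and 4.24 to 6.15 FPKM in the other 5 libraries, but 4.26 to 5.74 FPKM in all NextSeq libraries. NFKBIA, another inhibitor, was lower with DOX in 8p by 0.61 ± 0.0790 in size, going from 11.4 to 6.91 and 7.31 FPKM. The NF-kB list moved both ways there, with a median of -0.07 against -0.06 for all genes. TRAF2 went from 9.29 to 5.53 and 5.27 FPKM, and NFKBIZ from 4.43 to 7.41 and 6.53 FPKM.

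Of the 9 AP-1 and C/EBP genes tested in the NextSeq table, 3 were higher in 12q and 1 lower (44.4% called, beside 32.8% of all genes), with a median of -0.14. ATF3, a stress-induced factor, was higher by 1.30 ± 0.112 (adjusted p = 0.00483). FOS differed in sign between the tables, at 0.96 ± 0.215 in the NextSeq table (adjusted p = 0.0330) and -1.16 ± 0.0970 in the HiSeq table (adjusted p = 0.00814). It averaged 1 FPKM in the NextSeq table only through 12q, being at 0.511 and 0.355 FPKM in 1p. In the HiSeq table it did so only through 1p XIST and 1p vector (3.08 and 1.57 FPKM). The filter thus favoured these opposite calls, which are given as a description. Of 10 JAK-STAT genes, 2 were higher and 2 lower in 12q in the NextSeq table (40% called, beside the same 32.8%), with a median of 0.13. STAT3, which acts downstream of IL6 and LIF, was higher by 0.59 ± 0.0724 (adjusted p = 0.00925), and SOCS1, an inhibitor of JAK kinases, was lower by 1.37 ± 0.139 in size (adjusted p = 0.00640). SOCS1 had 3.59 and 3.85 FPKM in 1p against 0.629 and 1.06 FPKM in 12q, so its passing the filter rested mostly on 1p.

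Of the 7 genes for decay of such mRNAs, 3 were higher and 2 lower in 12q in the NextSeq table (71.4% called, beside 32.8% of all genes), with a median of -0.02. ZFP36, which promotes decay of AU-rich mRNAs, was higher by 1.40 ± 0.113 (adjusted p = 0.00436), with 10.1 and 11.4 FPKM against 3.72 and 3.22 FPKM. Its relative ZFP36L1 was higher by 1.27 ± 0.0766 (adjusted p = 0.00290). In 8p with DOX both were higher too, ZFP36L1 by 0.94 ± 0.0892 (adjusted p = 0.0162) and ZFP36 by 0.73 ± 0.0885 (adjusted p = 0.0177), in a list with 2 higher and 3 lower of 7, beside 31.1% of all genes called. ZFP36 and ZFP36L1 were thus higher in the comparisons in which IL1A and IL1B were higher, but the list as a whole was not. With DOX in 8p its median was -0.40, against -0.06 for all genes. KHSRP, of the same list, went from 121 FPKM with No DOX to 70.5 and 65.7 FPKM with DOX. Without the FPKM filter the list calls for DOX in 8p (adjusted p = 0.116 to 0.119), and those of FOS in both tables, were lost.

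Of 22 other secreted factors, 6 passed the filter in each table, and 3 were called higher and 1 lower in 12q in the NextSeq table, beside 17.9% of all genes called higher and 32.8% in all. IL24, a cytokine of the IL10 family, was lowest in 1p XIST like IL1A and IL1B, with 9.45 FPKM in 1p XIST, 36.1 FPKM in 12q, 81.8 FPKM in 1p vector and 60.2, 93.1 and 85.4 FPKM in 8p. Among the NextSeq libraries it was higher in 12q by 1.37 ± 0.159 (adjusted p = 0.00825). IL32, an inflammatory cytokine, had 1.74 FPKM in 1p XIST, 5.84 FPKM in 12q and 7.84 FPKM in 1p vector. IL11, of the IL6 family, went the other way and was lower in 12q by 1.42 ± 0.105 in size (adjusted p = 0.00393). TNF, the inflammatory cytokine, was listed at 0 in both 12q libraries with DOX and at 0.0417 FPKM in 12q with No DOX, against 1.23 to 1.96 FPKM in all other libraries. In the HiSeq table it was lower in 12q than in 1p XIST by 1.44 ± 0.131 in size (adjusted p = 0.00909, and 0.0869 at most over the alternatives). TNF passed the filter there only through the libraries other than 12q, so its call is given as a description.

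The genes most like the 4q chemokines were sought over the 6 HiSeq libraries, by Pearson's r with the mean of IL8, CXCL1, CXCL2 and CXCL3 on the log2 scale, among 1968 variable genes with at least 5 FPKM on average. The 5 with the highest r were SNORD42A (r = 0.992), MAGEA1 (r = 0.992), PAGE1 (r = 0.989), CDCP1 (r = 0.988) and CARD8 (r = 0.966). All were highest in the 12q library, and the correlation over 6 libraries describes that 1 library. With CXCL1 and CXCL2 listed at 0 throughout, the mean varied only with IL8 and CXCL3. MAGEA1, a cancer-testis antigen, had 44.4 FPKM in 12q and at most 0.0319 FPKM in the other HiSeq libraries, and 72.3 and 70.7 FPKM in the NextSeq 12q libraries. SNORD42A was listed at 0 in all NextSeq libraries.

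Markers were examined because the members can come from immune or vascular cells. Of 6 fibroblast or mesenchymal markers, 5 averaged at least 1 FPKM in both tables, with VIM at 1644 to 2978 FPKM. In the NextSeq table all 5 were called lower in 12q than in 1p, beside 32.8% of all genes called in either direction. FN1, the matrix protein fibronectin, was lower by 1.36 ± 0.179 in size (adjusted p = 0.0106), S100A4 by 1.11 ± 0.121 (adjusted p = 0.00740) and CD44 by 0.81 ± 0.0562 (adjusted p = 0.00366). Of the 5, 2 (40%) were called lower in 12q than in 1p XIST in the HiSeq table, beside 33.5% of all genes called. In 1p vector 3 (60%) were called lower than in 1p XIST, beside 42.2% of all genes called. Calls were thus common in both comparisons, in which IL1A and IL1B were higher. With DOX in 8p, where IL1A and IL1B were higher too, 2 of the 5 (40%) were called, both higher, beside 31.1% of all genes. FN1 was higher by 0.72 ± 0.106 (adjusted p = 0.0209) and CD44 by 0.48 ± 0.0937 (adjusted p = 0.0312). Without the FPKM filter these DOX calls were lost (adjusted p up to 0.162), as was that of FN1 between 12q and 1p (up to 0.0516). Of 6 leukocyte markers, CD68 and CSF1R averaged as much in both tables and LYZ in the HiSeq table, whereas PTPRC, the marker carried by leukocytes in general, was listed at 0 in all 10 libraries. The summed level of the 6 was 92.5 to 129 FPKM in the HiSeq table, lowest in 12q and highest in 1p vector. Nearly all of it was CD68, at 86.2 FPKM in 12q and 124 FPKM in 1p vector, so the ranking is mostly that of 1 gene. CSF1R was highest in 12q there, at 4.89 FPKM. Of 4 endothelial markers, CDH5 had 5.44 FPKM in 12q and 0.00747 to 0.835 FPKM in the other HiSeq libraries, so it was higher with IL6 and IL8. PECAM1 went the other way, with 0.958 FPKM in 1p XIST against 0.436 FPKM in 12q. In the NextSeq table PECAM1 had 0.767 and 0.796 FPKM in 1p against 0.628 and 0.534 FPKM in 12q. KDR and VWF did not exceed 0.394 FPKM in any library. The summed level of the 4 was 0.512 to 6.06 FPKM in the HiSeq table and 0.843 to 8.11 FPKM in the NextSeq table. It was highest in 12q in both, where most of it was CDH5. Of 4 epithelial markers none averaged 1 FPKM in the HiSeq table, where the highest value was 1.12 FPKM of CLDN4 in 12q, and CLDN4 did in the NextSeq table. The NextSeq 12q DOX library stood apart, with EPCAM at 2.38 FPKM and CDH1 at 1.38 FPKM, against at most 0.0339 FPKM in the other NextSeq libraries. The summed epithelial level ranged from 1.06 FPKM in 1p No DOX to 5.82 FPKM in this library. In the pair without it, 12q against 1p with No DOX, the ratios were those given above, 5.24 for IL1A, 10.5 for IL1B, 2.69 for IL6 and 6.37 for IL8. The part of fibroblast, epithelial and endothelial genes in the results was not tested, and fewer cells expressing a gene cannot be told apart from less RNA per cell.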

How the data were processed

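RNA was polyA-selected, in a library protocol modified to keep the strand, and sequenced in 10 libraries; 6 ChIP samples are not used here. The authors used Tophat and the hg18 build for alignment. They deposited FPKM, for which the submitters' processing notes name Cufflinks, as a HiSeq table of 6 and a NextSeq table of 4 libraries. Versions and annotation are not given in the sources used here. FPKM depend on the transcript models and on how reads shared by paralogs were assigned. Genes with a repeated symbol (735 in HiSeq, 878 in NextSeq), date-like symbols (26 per table) and 2 genes that had no value were dropped.

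Members and lists were chosen with earlier results of these data known. Groups came from the sample titles. Limma 3.58.1 (R 4.3.3, lmFit, eBayes with trend) was fitted per table to log2(FPKM + 1) for genes averaging 1 FPKM or more. The 4 main comparisons were planned, and the HiSeq comparisons of 12q and of 1p vector with 1p XIST, the implied fragments and their exact intervals were added after the data were seen. Named genes were all 9 members, up to 3 called genes of a list with the largest difference per comparison, and the nearest genes of the cluster. Not all of them are discussed, and NFKBIA, STAT3, TNFAIP3, IL1R1, MAGEA1 and CDH5 were described where their values bore on a member. Fragments were implied with a tolerance of 0.15 and divisors up to 10. Python 3.11.15, numpy 2.4.6, pandas 2.3.3 and scipy 1.17.1 were used. The fit was tested on simulated data. Alternatives were a pseudocount of 0.1, other filters, rescaled libraries, no trend, and leaving out libraries.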

Additional observations from a re-analysis of the deposited data

Results flagged for a closer look

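The change with DOX had opposite signs in different clones for 4 members, on the log2(FPKM + 1) scale, and no test of these differences was made. IL1B changed by 0.6761 in 8p (mean of 2 DOX libraries), 0.3584 in 1p and -0.1856 in 12q. LIF changed by 0.0768 in 8p, -0.2321 in 1p and -0.2622 in 12q. CXCL3 changed by 0.0943 in 8p, -0.1505 in 1p and -0.5067 in 12q. CCL2 changed by -0.3941 in 8p, -0.2582 in 1p and 0.1261 in 12q, where it was listed at 0 without DOX. Apart from the 8p DOX pair each value rests on single libraries, and 8p comes from another table than 1p and 12q.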

How the results depend on the processing

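The NextSeq calls for IL1A, IL1B and IL8 between 12q and 1p kept an adjusted p of 0.00430 to 0.0452 under the alternatives that could be tested, though these genes averaged 1 FPKM only through 12q. The NextSeq fit compares clones within a DOX state and DOX within a site by its additive terms. It thus pairs libraries by site and by DOX, without replicates of a pair, and no other paired analysis was made. In the 8p comparison, which called 587 genes, IL1A changed sign with a pseudocount of 0.1, with or without the filter (0.0310), and ranged from -0.60 to 0.45 when single libraries were left out, above 0 without 8p No DOX (0.23) and without 1p vector (0.45), while LIF changed sign with a pseudocount of 0.1, with or without the filter (0.00466), and ranged from -0.20 to 0.35, above 0 without 8p No DOX (0.02), the second 8p DOX library (0.01) or 1p vector (0.35). Neither was called under any of these. The number of genes called there was 320 without the filter, 306 with a pseudocount of 0.1 and no filter, and 29 to 1737 when single libraries were left out, the lowest without the first 8p DOX library and the highest without 12q. Without the filter, and with a pseudocount of 0.1 and no filter, the counts of genes called fell to 15 and 0 for DOX in 8p (from 3537), 116 and 128 for 12q against 1p XIST in the HiSeq table (from 3806), 51 and 48 for 1p vector against 1p XIST (from 4795), 1971 and 1831 for 12q against 1p in the NextSeq table (from 3742), and 0 and 0 for DOX in the NextSeq table, which called 1 gene and, without a trend, 2. More genes of low level are tested without the filter. Rescaling changed the HiSeq split of calls to 1827 higher and 1818 lower for 12q against 1p XIST (from 2722 and 1084) and to 2520 and 2431 for 1p vector (from 1701 and 3094). Leaving out a NextSeq library leaves no residual spread, and such values carry no test. Of the values for single genes, 406 kept their direction and call or stayed within the spread, 109 moved, 50 lost a call and 9 changed sign. IL6, CXCL3 and CCL2 lie below the filter, and few fragments limit what can be said of them.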
